A study of Rattus norvegicus with 18 samples.

Results

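The 4 syndecans, the 2 syntenins and glypican 1 were examined in cervical dorsal root ganglia (DRG) of the rat. They were found by matching the RefSeq identifiers of the authors' count table to gene symbols, and all 7 genes were present among its 15075 identifiers: Sdc1 (NM_013026), Sdc2 (NM_013082), Sdc3 (NM_053893), Sdc4 (NM_012649), Sdcbp (NM_031986), Sdcbp2 (NM_001025692) and Gpc1 (NM_030828). All 7 passed the filter on low counts in each of the 3 comparisons. The study names Sdc1 and Sdcbp2 and chose them on these same rats, so their differences between groups are not independent evidence of a direction.

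The DRG came from 18 Lister Hooded rats in 3 groups of 6 rats. Naïve rats were unoperated and untreated. Rats of both other groups had the corticospinal tract cut on both sides in the medullary pyramids (bilateral pyramidotomy, bPYX), a lesion that does not touch the DRG or the peripheral nerves themselves. A day later their forelimb flexor muscles were injected on one side with an adeno-associated virus of serotype AAV1 that carried, behind the CMV promoter, either GFP as control (bPYX+GFP) or human prepro-neurotrophin-3 (bPYX+NT3). The study states that operated rats also had behavioural tests, nerve recordings and nerve tracing, and its comparison of traced neurons includes naïve rats. Which of the sequenced rats had these procedures is not given in the sources used here, and their bearing on the values below was not tested. The C6 to C8 ganglia of the injected side were pooled within each rat, 10 weeks after injury in the operated groups, and poly(A) RNA was sequenced. No group was operated and left without virus, so the effects of pyramidotomy and of AAV1 cannot be told apart in bPYX+GFP rats. In a whole ganglion, fewer cells of a type and less RNA per cell cannot be told apart either.

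Rats were grouped by the heading of the series count table, which pairs each rat number with a sample description. The count files attached to the individual sample records disagree with this heading: each was identical to a column of the table, but for 18 of 18 records it was the column of another rat, and for 17 of a rat of another group. The heading's grouping gave the log2 fold changes that the study lists for Sdc1, -0.53 in bPYX+GFP against naïve and 0.52 in bPYX+NT3 against bPYX+GFP rats. The heading was therefore taken as the study's grouping. Every comparison was also made with the groups of those records, which shows only what the other labels would give. Between 10057787 and 16002410 read pairs fell on genes in each rat. The neuron markers summed to between 39134 and 74676 normalised read counts per rat over 7 listed genes, of which Snap25 alone was at 0 in at least 1 rat. The share of read pairs that fell on no annotated feature (introns or intergenic sequence) ranged from 30.8 to 34.6% and was lowest in rat 11 (bPYX+NT3) and rat 57 (bPYX+GFP, 31.7%). No difference in this share between groups passed (exact permutation p = 0.861, 0.288 and 0.390 for the 3 comparisons), but several of the 7 genes followed it closely across rats, and its values are given beside those results.

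Syndecans are cell-surface proteoglycans: a single transmembrane core protein carries heparan sulfate chains that bind growth factors, axon guidance cues and matrix proteins. Their short cytoplasmic tails end in a motif that is bound by the PDZ domains of syntenin, and the syndecan-syntenin complex is known for sorting cargo into exosomes. Glypicans carry heparan sulfate too, but are held in the membrane by a lipid anchor and so have no cytoplasmic tail. In the peripheral nervous system syndecan-3 is the typical neuronal syndecan, while syndecan-1 is best known from epithelia and plasma cells.

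The promoters of Sdc1 and Sdcbp2 are shown because these 2 genes varied together from rat to rat, as described further on. RefSeq promoter sequences (build GRCr8) were matched for 4 of the 7 genes, namely Sdc1, Sdc3, Sdc4 and Sdcbp2, and not for Sdc2, Sdcbp and Gpc1. Below are the 250 bases before the annotated gene start, chr6:37281791-37282040 for Sdc1 and chr3:160530677-160530926 for Sdcbp2, both on the plus strand and read 5′ to 3′. Capitals mark GC boxes (GGGCGG) and E-boxes (CANNTG), searched on both strands.
Sdc1: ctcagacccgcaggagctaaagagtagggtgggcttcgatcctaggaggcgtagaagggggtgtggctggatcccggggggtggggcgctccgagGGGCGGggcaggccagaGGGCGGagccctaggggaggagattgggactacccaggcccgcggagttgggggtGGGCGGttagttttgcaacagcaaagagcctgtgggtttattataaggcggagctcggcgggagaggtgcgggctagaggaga
Sdcbp2: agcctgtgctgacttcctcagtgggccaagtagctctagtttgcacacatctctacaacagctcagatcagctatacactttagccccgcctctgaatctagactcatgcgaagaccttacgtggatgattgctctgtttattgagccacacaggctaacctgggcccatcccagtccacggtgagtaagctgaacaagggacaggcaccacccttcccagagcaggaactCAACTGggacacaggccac
The Sdc1 window held 3 GC boxes and no E-box, with a GC content of 65.2%. The Sdcbp2 window held 1 E-box and no GC box, with a GC content of 53.2%, against a median of 51.2% over 33469 promoters. The Sdc3 and Sdc4 windows held 4 and 5 GC boxes, of which 2 in Sdc4 shared a base. Of all promoters, 30.5% held a GC box and 65.5% an E-box within the same length. None of the 4 windows held TATAAA or TGANTCA (the AP-1 motif) on either strand, motifs that 12.9% and 6.34% of all promoters hold.

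A gene is called here when its unadjusted p in edgeR (quasi-likelihood test) was under 0.05. Of the 7 genes, none was called between bPYX+GFP and naïve rats, where 3.25% of 11601 genes tested did. None passed between bPYX+NT3 and naïve rats, where 6.01% of 11693 genes did. Between the 2 operated groups 1 of the 7 passed, Sdcbp2, where 1.73% of 11623 genes did. DESeq2 gave the same counts of 0, 0 and 1. After adjustment over all genes tested, the quasi-likelihood test of edgeR left 0 genes under 0.05, with minima of 0.201, 0.607 and 0.851 for the 3 comparisons. In bPYX+GFP against naïve rats the likelihood ratio test of edgeR left 13 genes and DESeq2 17. Both left 0 in the other comparisons. All values below are normalised read counts, that is, counts scaled to a common library size, and levels are not compared between genes because they are not scaled to transcript length.

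**Figure D1:**
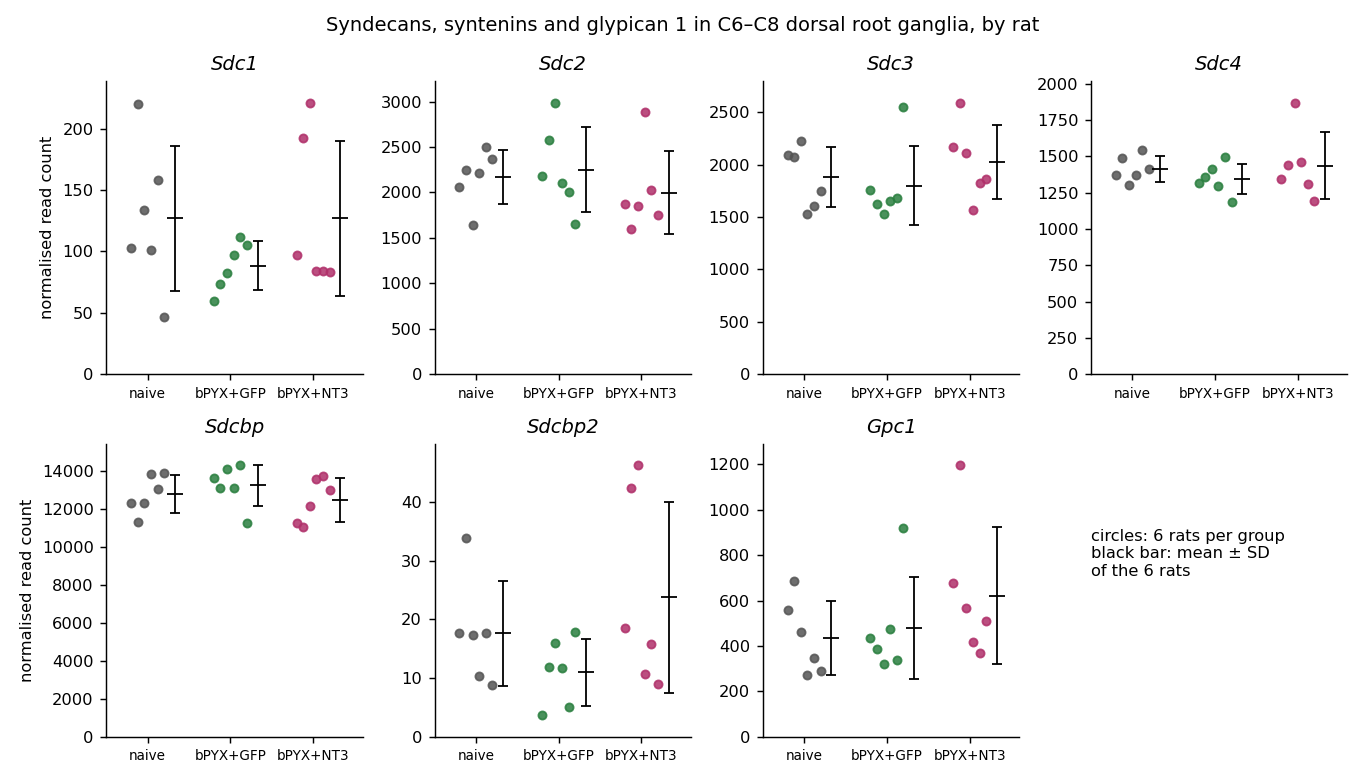
Normalised read counts (vertical axes, from 0) of the 7 genes in the 6 naïve, 6 bPYX+GFP and 6 bPYX+NT3 rats, 1 circle per rat, with the mean ± SD of each group as a black bar. The ranges of the 3 groups overlap for every gene, and Sdc1, Sdcbp2 and Gpc1 spread widely within groups.

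Syndecan-1 was the syndecan with the widest spread between rats. Its normalised count had a lowest, median and highest value of 46.5, 118 and 220 in naïve rats, of 59.6, 89.7 and 112 in bPYX+GFP rats and of 83.0, 90.4 and 221 in bPYX+NT3 rats. The 3 ranges overlapped. All 6 bPYX+GFP rats and 4 of 6 bPYX+NT3 rats lay below the naïve median, and 3 of 6 bPYX+NT3 rats exceeded the bPYX+GFP median. Rats 11 and 17 of the bPYX+NT3 group lay near 200 and the other 4 between 83.0 and 97.1. The means were 127 ± 59.1 (SD, n = 6), 88.3 ± 19.9 and 127 ± 62.8. The log2 fold change was -0.53 (SE 0.28) in bPYX+GFP against naïve rats, with p = 0.0840 in edgeR and an exact permutation p of 0.264. It was 0.52 (SE 0.28) in bPYX+NT3 against bPYX+GFP rats, with p = 0.0825 and an exact permutation p of 0.223. Between bPYX+NT3 and naïve rats it was -0.01 (SE 0.34), with p = 0.973 and an exact permutation p of 0.983. Neither comparison with bPYX+GFP rats passed here, whereas the study lists Sdc1 at p under 0.05 in both, with the same fold changes. Each was called in edgeR here once particular rats were left out. The first was then -0.70 without naïve rat 49, and the second 0.62 without any one of the bPYX+NT3 rats 23, 39 and 40.

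Syndecan-2, a syndecan of mesenchymal cells, had values of 1644, 2229 and 2500 (lowest, median, highest) in naïve rats, 1657, 2142 and 2987 in bPYX+GFP rats and 1593, 1859 and 2880 in bPYX+NT3 rats. The groups overlapped almost completely, and 5 of the 6 bPYX+NT3 rats lay below the naïve median. The log2 fold changes were 0.05 (SE 0.13), -0.12 (SE 0.13) and -0.17 (SE 0.15) in bPYX+GFP against naïve, bPYX+NT3 against naïve and bPYX+NT3 against bPYX+GFP rats, with p = 0.693, 0.370 and 0.271 in edgeR and exact permutation p = 0.803, 0.381 and 0.318. Rat 23 held the highest bPYX+NT3 value, and without it the last 2 differences were -0.26 and -0.31 and both were called. Those fits called 1387 and 390 of all genes, against 703 and 201 with every rat.

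Syndecan-3, the receptor for pleiotrophin on axons, had values of 1534, 1913 and 2225 in naïve rats, 1533, 1670 and 2556 in bPYX+GFP rats and 1570, 1990.2 and 2592 in bPYX+NT3 rats. The highest values of both operated groups came from rats 57 and 11, the libraries with the lowest no-feature shares. Its log2 fold changes were -0.06 (SE 0.13), 0.10 (SE 0.12) and 0.17 (SE 0.14), with p = 0.667, 0.410 and 0.257 in the same order (exact permutation p = 0.623, 0.455 and 0.277). Without rat 57, the last of these differences was 0.29 and was called. That fit called 2291 of all genes, against 201 with every rat.

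Syndecan-4, a component of focal adhesions, was the steadiest syndecan. Its means were 1414 ± 87.9, 1343 ± 106 and 1436 ± 233 in naïve, bPYX+GFP and bPYX+NT3 rats, and its within-group coefficient of variation of 10.1% was close to the median of 9.88% over 1183 genes of like level. Rat 17 of the bPYX+NT3 group held the highest value of all rats, 1869. The log2 fold changes were -0.07 (SE 0.06), 0.02 (SE 0.09) and 0.10 (SE 0.10), with p = 0.240, 0.826 and 0.329 (exact permutation p = 0.238, 0.924 and 0.461).

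Syntenin-1 (Sdcbp), the adaptor that links syndecans to the exosome machinery, varied least. Its values ran from 11352 to 13924 in naïve rats, from 11248 to 14309 in bPYX+GFP rats and from 11067 to 13755 in bPYX+NT3 rats, with means of 12813 ± 996, 13258 ± 1100 and 12483 ± 1153. The log2 fold changes were 0.05 (SE 0.07), -0.04 (SE 0.07) and -0.09 (SE 0.07), with p = 0.483, 0.608 and 0.244 (exact permutation p = 0.487, 0.582 and 0.258). Their 95% confidence intervals lay between -0.23 and 0.18 over the 3 comparisons.

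Syntenin-2 (Sdcbp2), the close relative of syntenin-1 with the same pair of PDZ domains, was the single gene of the 7 that passed. It was counted in every rat but at few reads, so that counting error is part of its spread. Its lowest, median and highest values were 8.9, 17.4 and 33.9 in naïve rats, 3.6, 11.8 and 17.9 in bPYX+GFP rats and 9.0, 17.1 and 46.2 in bPYX+NT3 rats. The high bPYX+NT3 values were those of rats 11 and 17, at 42.3 and 46.2, the same 2 rats in which syndecan-1 was high, and the other 4 lay within the naïve range. The log2 fold change was 1.09 (SE 0.47, a 2.13-fold difference) in bPYX+NT3 against bPYX+GFP rats, with p = 0.0357 in edgeR, an adjusted p of 0.851 and an exact permutation p of 0.106, and 4 of 6 rats given NT3 exceeded the median of those given GFP. It was -0.68 (SE 0.38, exact permutation p = 0.169) in bPYX+GFP against naïve rats, 5 of 6 being below the naïve median, and 0.41 (SE 0.43, exact permutation p = 0.554) in bPYX+NT3 against naïve rats. The call between the operated groups was lost when any of 6 rats was left out (bPYX+GFP rats 5, 15, 21 and 52, and bPYX+NT3 rats 11 and 17), and over all 12 rats left out in turn the difference lay between 0.81 and 1.30. It was also lost when the no-feature share was added to the model (0.77) and with the groups of the attached records, where the difference was -0.34. Without rat 57 the difference between bPYX+GFP and naïve rats passed the threshold (-0.90), as it did with that share in the model (-0.75). Those fits called 595 and 848 of all genes, against 377 in the main fit.

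**Figure D2:**
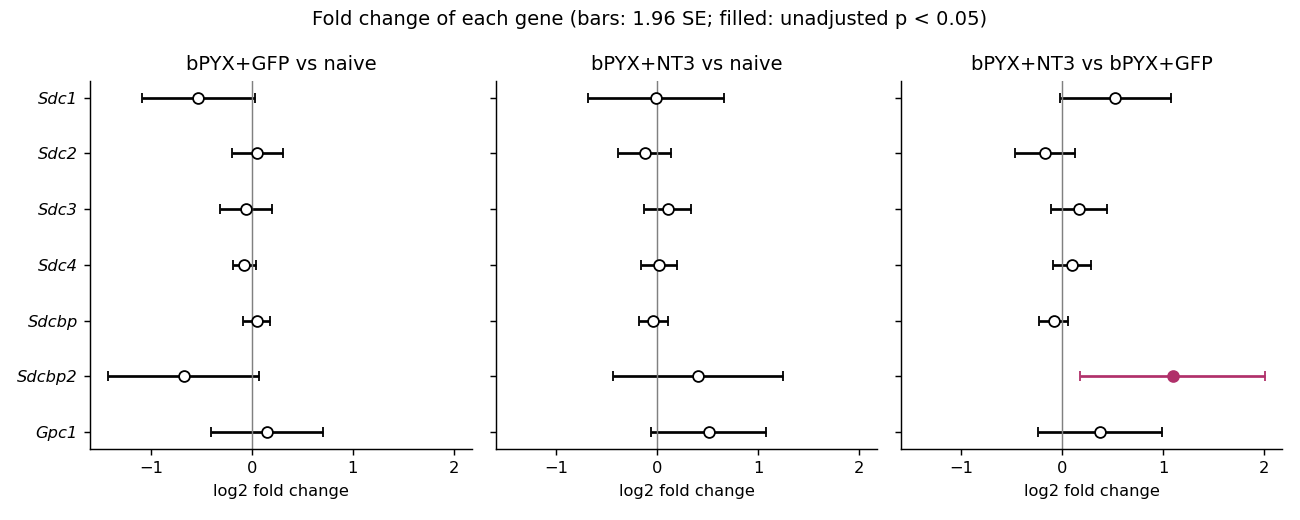
Log2 fold change (horizontal axes) of each of the 7 genes in the 3 comparisons, from edgeR, with bars for the 95% confidence interval. A single filled marker, Sdcbp2 in bPYX+NT3 against bPYX+GFP rats at 1.09, has an unadjusted p under 0.05, and the intervals of Sdc4 and Sdcbp are the narrowest.

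Glypican 1, which presents Slit and fibroblast growth factor ligands on axons and Schwann cells, had values of 272, 404 and 684 in naïve rats, 320.3, 411 and 921 in bPYX+GFP rats and 371, 537 and 1195 in bPYX+NT3 rats. The groups overlapped, and the highest bPYX+GFP and bPYX+NT3 values stood well above the others of their groups, in rat 57 and rat 11. The means were 435 ± 163, 479 ± 224 and 622 ± 301. Its log2 fold changes were 0.15 (SE 0.28), 0.51 (SE 0.29) and 0.37 (SE 0.31) in bPYX+GFP against naïve, bPYX+NT3 against naïve and bPYX+NT3 against bPYX+GFP rats, with p = 0.612, 0.0999 and 0.252 (exact permutation p = 0.714, 0.175 and 0.310). In 5 of 6 bPYX+NT3 rats it lay above the naïve median. Single rats moved these values: bPYX+NT3 against naïve rats was 0.70 without rat 42 and 0.63 without rat 39 and was called both times, and bPYX+NT3 against bPYX+GFP rats was 0.67 and was called without rat 57 but was 0.070 without rat 11. Without rat 57 the difference between bPYX+GFP and naïve rats turned to -0.16. With the replicate number as a block, glypican 1 was called in bPYX+NT3 against naïve rats (0.48, adjusted p = 0.102), although the labels state no pairing of rats. That fit called 2962 of all genes, against 703 without the block. Its within-group coefficient of variation of 44.1% was above that of 99.7% of 1183 genes of like level, whose median was 11.0%. The coefficients of Sdc1 (39.5%), Sdc2 (19.1%), Sdc3 (17.9%) and Sdcbp2 (56.9%) were above those of 92.7, 95.4, 93.1 and 90.7% of such genes, and that of Sdcbp (8.43%) was below the median of 678 genes of like level.

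The spread was shared between several of the 7 genes. After the group means were removed, 12 of the 21 pairs of the 7 genes were correlated over the 18 rats with an adjusted permutation p under 0.05. The share of all gene pairs that would pass was not computed, so this count is not read as particular to these genes. Genes outside the 7 followed glypican 1 more closely than any of the 7 did, the 10th closest at r = 0.98. Syntenin-1 and glypican 1 ran opposite to each other most closely, with Pearson's r = -0.95 and Spearman's rho = -0.95 (adjusted permutation p = 0.00021 for both). Syndecan-3 rose and fell with glypican 1 (r = 0.90, rho = 0.85, adjusted permutation p = 0.00063 and 0.00147) and against syntenin-1 (r = -0.87, rho = -0.81, adjusted permutation p = 0.00084 and 0.00308). Syndecan-2 and syndecan-3 were opposed (r = -0.80, rho = -0.73, adjusted permutation p = 0.000892 and 0.00357). Within groups, r between syntenin-1 and glypican 1 was -0.98 for naïve rats, -0.97 for bPYX+GFP rats and -0.92 for bPYX+NT3 rats. Without the 2 rats farthest from the median it was -0.92.

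The no-feature share moved with the same genes. Over the 18 rats and with group means removed, r between this share and glypican 1 was -0.92 (rho = -0.85, adjusted permutation p = 0.00021), and with syndecan-3 it was -0.89 (rho = -0.81, adjusted permutation p = 0.00035). With syntenin-1 it was 0.83 (rho = 0.85, adjusted permutation p = 0.00021) and with syndecan-2 0.70 (rho = 0.61, adjusted permutation p = 0.0138). It was weaker with Sdcbp2 (-0.61) and Sdc1 (-0.52), and with Sdc4 it was 0.19 (adjusted permutation p = 0.511). Within naïve, bPYX+GFP and bPYX+NT3 rats it was 0.25, 0.86 and -0.11 for Sdc4. For glypican 1 it was -0.87, -0.97 and -0.92 within naïve, bPYX+GFP and bPYX+NT3 rats. Once the share was regressed out of both genes, 3 of the 21 pairs had an adjusted permutation p under 0.05. Syntenin-1 against glypican 1 was one of them (r = -0.84), but syndecan-3 with glypican 1 (r = 0.45) and with syntenin-1 (r = -0.50) were not. With rats 11 and 57 left out, 5 of the 21 pairs passed, those 3 pairs among them (r = -0.93, 0.79 and -0.76).

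**Figure D3:**
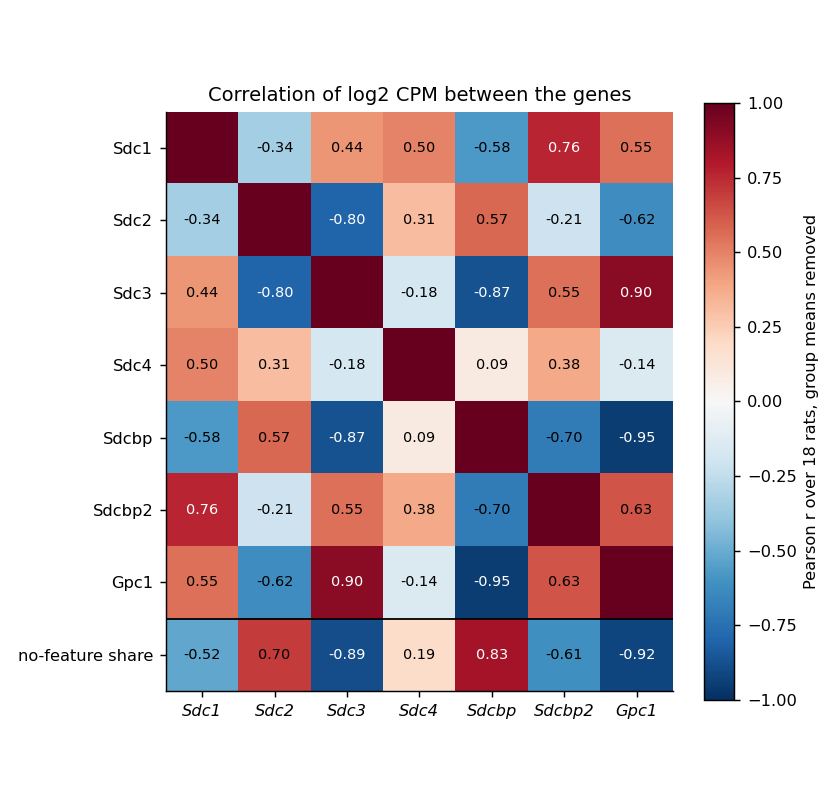
Pearson's r of log2 CPM over 18 rats with group means removed, for each pair of the 7 genes (upper 7 rows) and for each gene with the share of read pairs on no feature (last row), on a colour scale from -1 to 1. Gpc1 and Sdc3 are opposed to Sdcbp and to the no-feature share. Sdc4 stands outside this pattern over the 18 rats, but within bPYX+GFP rats its r with the share is 0.86.

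**Figure D4:**
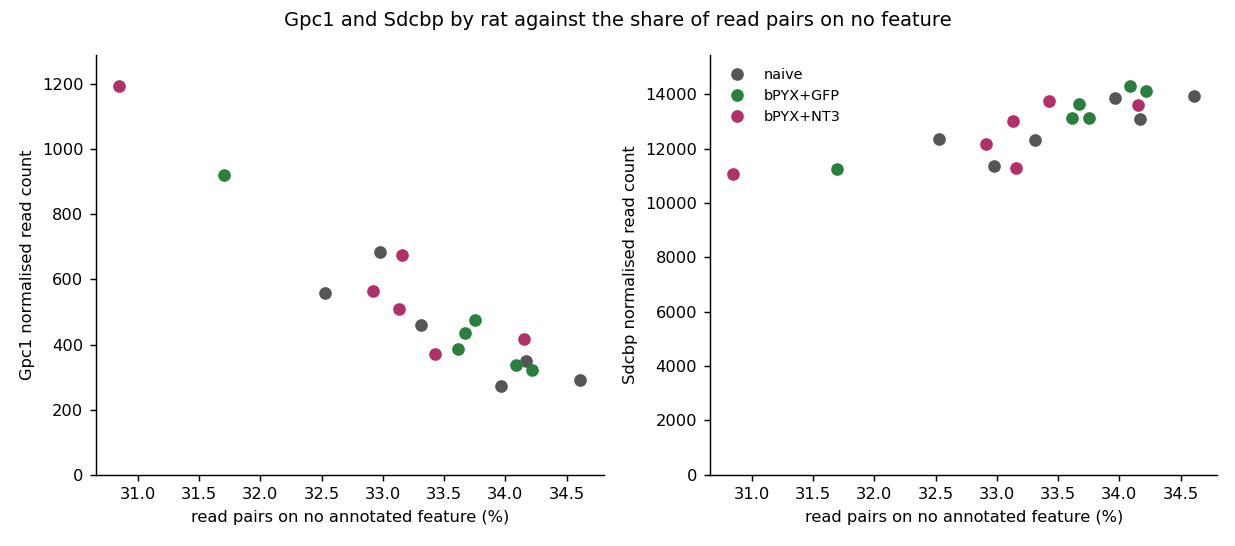
Normalised read counts (vertical axes, from 0) of Gpc1 and Sdcbp in each of the 18 rats against the percentage of read pairs on no annotated feature (horizontal axes), coloured by group. Gpc1 is highest in rats 11 and 57, which have the lowest shares, and Sdcbp is low in both.

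The genes whose pattern over the 18 rats, with group means removed, was most like that of each gene were searched among 11142 named genes that passed the filter. For glypican 1 they were Flot1 (r = 0.99), Cyth2 (0.99) and Emp3 (0.99), and for syndecan-3 they were Chrnb2 (0.98), Mmp15 (0.98) and Adgrg1 (0.97). For syntenin-1 they were Ap1s2 (0.97), Lmbrd1 (0.97) and Atp1b3 (0.97). For syndecan-2 they were Cdc42ep3 (0.92), Twist1 (0.92) and Gpx8 (0.91), and for syndecan-4 Adamts1 (0.91), Igtp (0.86) and Elk3 (0.85). For syntenin-2 they were Chst10 (0.87), Timp1 (0.86) and Tor4a (0.86). These are descriptions over 18 rats whose libraries were sequenced together.

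Syndecan-1 rose and fell with other genes, among them several that sensory neurons switch on when their axon is cut. The share of all genes that followed it as closely was not computed. Its closest genes were Nsg1 (r = 0.95), Arg1 (0.94) and Cmtm3 (0.93), and the fourth was Atf3 (0.93), the transcription factor used as a marker of axotomised neurons, which is named here after its value was seen. Arg1, an enzyme of arginine breakdown that injured neurons express, was itself called, lower in bPYX+GFP than in naïve rats (log2 fold change -1.01) and higher in bPYX+NT3 than in bPYX+GFP rats (1.10). In a list of 7 axotomised-neuron genes, Gap43 gave 67.0% of the summed count, Npy was at or near 0 in every rat, and Sprr1a was at 0 in at least 1 naïve rat. The summed count of the list ran from 4271 to 8488 in naïve rats, from 4820 to 6882 in bPYX+GFP rats and from 5626 to 9372 in bPYX+NT3 rats. No difference between groups passed (exact permutation p = 0.374, 0.749 and 0.210). Within groups Sdc1 rose with it at r = 0.90 and rho = 0.83 (permutation p = 0.00017 and 0.00030, and 0.0034 for r after adjustment over 20 pairs of a list and a gene), and at 0.81 without the 2 farthest rats. The coefficient was 0.98 for naïve rats, 0.49 for bPYX+GFP rats and 0.96 for bPYX+NT3 rats. It was 0.94 without rats 11 and 57 and 0.90 with the no-feature share regressed out.

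Each of the 6 genes of this list that passed the filter rose and fell with syndecan-1. The coefficient was 0.93 for Atf3, 0.92 for Gal (the neuropeptide galanin), 0.87 for Sprr1a (a cornified envelope protein that promotes axon growth), 0.81 for Jun, 0.80 for Gap43 and 0.76 for Sox11, with adjusted permutation p between 0.00024 and 0.00148 over 12 pairs. Within bPYX+GFP rats it was 0.67, 0.86, 0.72, 0.44, 0.35 and 0.53 in the same order. Atf3 ran from 104 to 1207 in naïve rats, from 225 to 717 in bPYX+GFP rats and from 368 to 1604 in bPYX+NT3 rats, so unoperated rats covered most of its range as they did for syndecan-1. The highest syndecan-1 counts lay in rats 17, 42 and 11, and the lowest in naïve rat 49. Atf3 itself was not called in any comparison, with log2 fold changes of -0.56, 0.20 and 0.76. Gal (0.97) and Sprr1a (1.13) were called as higher with NT3 than with GFP, both at an adjusted p of 0.851.

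Syntenin-2 rose with syndecan-1 (r = 0.76, rho = 0.78, adjusted permutation p = 0.00265 and 0.00365), and at 0.74 without the 2 farthest rats. The coefficient was 0.88 in naïve and 0.96 in bPYX+NT3 rats but 0.35 in bPYX+GFP rats, the group with few high values of either gene. It was 0.73 without rats 11 and 57, and 0.66 (adjusted permutation p = 0.0279) with the no-feature share regressed out. With the axotomised-neuron list syntenin-2 gave r = 0.61 and rho = 0.62 (permutation p = 0.0136 and 0.0130, adjusted p for r 0.0909), with -0.03 in bPYX+GFP rats. Of the list's genes Atf3 (0.69) and Gal (0.68) were the closest to it.

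**Figure D5:**
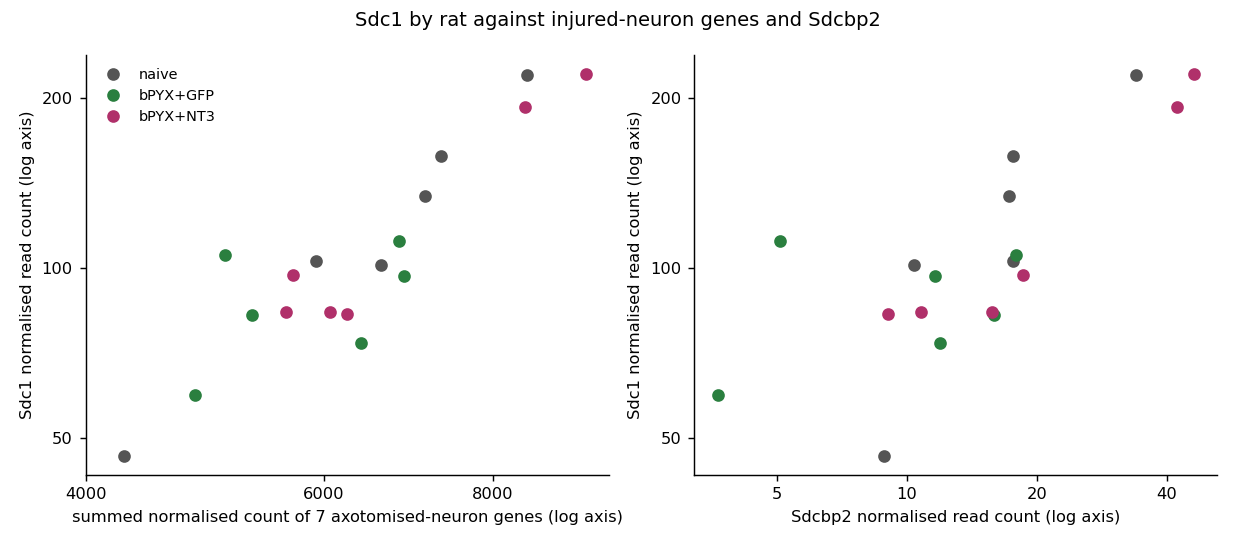
Normalised read count of Sdc1 (vertical, log axis) in each of the 18 rats against the summed normalised count of 7 axotomised-neuron genes (left, log axis) and against that of Sdcbp2 (right, log axis), coloured by group. Sdc1 rises with both, r = 0.90 and 0.76 with group means removed, and in the left panel a naïve rat lies lowest and another among the 3 highest.

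Markers of cells in which syndecan-1 is known to be abundant were examined beside it. The plasma and B cell list, with 6 of 9 genes in the table, summed to between 102 and 261 per rat, with Mzb1, Cd79b and Tnfrsf17 at 0 in at least 1 rat, and its r with Sdc1 was 0.17 (permutation p = 0.524). The epithelial list summed to between 4794 and 5688 with Krt5, Krt14, Krt18, Krt19 and Cldn7 at 0 in at least 1 rat, and Cdh1 (E-cadherin) alone gave 98.3% of that sum. Its r with Sdc1 was 0.03 over the 18 rats (permutation p = 0.900), with opposite signs within groups: -0.64 in the naïve group, 0.66 with GFP and 0.78 with NT3. Macrophage (0.41) and endothelial (0.43) lists had adjusted p of 0.399 with Sdc1. The endothelial list gave r = 0.63 with Sdcbp2 (permutation p = 0.00983, adjusted p = 0.0909), and the macrophage list 0.56 (adjusted p = 0.122). Neuron, satellite glia, myelinating Schwann cell, fibroblast and adipocyte lists lay between -0.14 and 0.26 with Sdc1.

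The partners of these proteoglycans were examined in 10 lists of 130 genes, of which 106 were tested. Between bPYX+GFP and naïve rats 0 were higher and 12 lower at an unadjusted p under 0.05, that is 11.3% against 3.25% of all genes tested, where 85 were higher and 292 lower. The median log2 fold change of the lists was -0.01 and that of all genes 0.01. Between bPYX+NT3 and naïve rats 2 were higher and 5 lower (6.60% against 6.01%), with medians of -0.03 and 0.00. Between the 2 operated groups 0 of 106 passed in edgeR and 0 in DESeq2. In DESeq2 0 were higher and 13 lower in the first of these comparisons, and 3 higher and 7 lower in the second. The smallest adjusted p of these genes in edgeR was 0.607. With the groups of the attached records, 13 of the 19 differences below had the opposite sign and 0 of 19 passed.

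The calls fell on carriers, ligands, receptors and partners outside the 7 genes, each at an unadjusted edgeR p under 0.05; the exact permutation p given beside each is not adjusted and exceeds 0.05 for several. Of the other glypicans, Gpc3 was lower than in naïve rats in both operated groups, with a mean of 1243 for naïve rats, 1036 for bPYX+GFP rats (log2 fold change -0.26, SE 0.12, exact permutation p = 0.104) and 977 for bPYX+NT3 rats (-0.35, SE 0.13, exact permutation p = 0.0584). Among matrix ligands, Lamc1, the gamma chain shared by most laminins, was lower in both (-0.25 and -0.18, edgeR p = 0.00155 and 0.0130, exact permutation p = 0.00649 and 0.0195), and Thbs2 was lower in bPYX+GFP rats (-0.40, edgeR p = 0.00456, exact permutation p = 0.0130). Lama5 was higher in bPYX+NT3 than in naïve rats (0.76, exact permutation p = 0.0974). Among soluble ligands, Fgf7 was lower in bPYX+GFP rats (-0.35, exact permutation p = 0.0671) and the chemokine Cxcl12 in bPYX+NT3 rats (-0.35, exact permutation p = 0.0563), both against naïve rats.

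Lrrtm4, a synaptic adhesion protein that binds heparan sulfate proteoglycans, was lower in both operated groups (-0.33 and -0.41, edgeR p = 0.0178 and 0.00154, exact permutation p = 0.0195 and 0.00216). Its counts ran from 162 to 210.3 in naïve rats and from 114 to 156 in bPYX+NT3 rats, so that these 2 groups did not overlap. An exact permutation p of 0.00216 is the smallest that 6 against 6 rats can give. Lrrtm4 was named for its small p, and its adjusted p in edgeR was 0.607 in that comparison. The share of all genes tested that did not overlap between these 2 groups was not computed. The groups overlapped in the other 18 of these 19 differences. Among receptors, the integrin subunit Itgb3 was lower in bPYX+GFP than in naïve rats (-0.89, edgeR p = 0.00596, exact permutation p = 0.0216) and Fgfr1 was higher in bPYX+NT3 than in naïve rats (0.29, exact permutation p = 0.0974). Of the proteases that shed syndecan ectodomains, Adam17 (-0.29, exact permutation p = 0.0801) and Mmp14 (-0.25, exact permutation p = 0.0758) were lower in bPYX+GFP rats and Adam10 (-0.25, exact permutation p = 0.0303) in bPYX+NT3 rats.

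Inside the cell, the Rac activator Tiam1 (-0.21, exact permutation p = 0.0195) and the actin linker Ezr (-0.16, exact permutation p = 0.0130) were lower in bPYX+GFP than in naïve rats, both among 11 tested cytoplasmic partners. Of 14 genes of the syntenin exosome route, the tetraspanin Cd63 (-0.23, exact permutation p = 0.0476) and the phospholipase Pld1 (-0.19, exact permutation p = 0.0476) were lower in bPYX+GFP rats, and 0 passed in both other comparisons. The lists of other heparan sulfate carriers (8 tested), of chain linkage and polymerisation (10) and of chain modification (12) had 0 calls in all 3 comparisons, with fold changes between -0.33 and 0.44 on the log2 scale. Of the 19 calls of 16 genes, 8 were kept when any 1 rat was left out: Lamc1 and Lrrtm4 in both comparisons, and Tiam1, Ezr, Thbs2 and Itgb3 in bPYX+GFP against naïve rats. The other 11 were lost without at least 1 rat, from 1 rat (rat 42, Gpc3 in bPYX+NT3 rats) to 9 rats (Gpc3 in bPYX+GFP rats). In 10 other settings with all rats, 11 of the 19 calls were lost at least once, among them Ezr (1 fit over the 3 groups) and Lamc1 in bPYX+NT3 rats (scaling by library size alone). The 6 calls kept in these settings and without any 1 rat, though not with the groups of the attached records, were Lrrtm4 in both comparisons and Lamc1, Tiam1, Thbs2 and Itgb3 in bPYX+GFP rats. Markers of myelinating Schwann cells summed to 29032 to 44698 in naïve, 24490.5 to 37356 in bPYX+GFP and 29097 to 35823 in bPYX+NT3 rats, with exact permutation p = 0.0368 and 0.0541 against naïve rats (adjusted 0.382 over 30 comparisons of lists). Fibroblast markers summed to medians of 26278, 23236 and 20432 in the same order over 4 genes, with exact permutation p = 0.0974 and 0.0649 against naïve rats (adjusted 0.382). Of these 4 genes Col1a1 was called as lower in both operated groups (-0.49 and -0.34), Lum in bPYX+GFP rats (-0.23) and Dcn in bPYX+NT3 rats (-0.28), and Pdgfra in neither. The part of either cell type in the pathway genes lower than in naïve rats was not tested.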

How the data were processed

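Per the study's methods, the authors mapped 50-base read pairs with TopHat2 (Rnor_6.0), kept 1 of each set of duplicates (Picard) and counted pairs per RefSeq identifier with HTSeq. The deposited counts are whole numbers that are not normalized. Library sizes count only pairs on genes, which excludes 33.3% ± 0.939 (SD, 18 rats) on no feature, 2.95% ambiguous and 21.1% at several locations. Whether counting used strand is not given in the sources used here. Symbols came from a RefSeq table, which matched 14193 identifiers, and of several identifiers for 1 symbol the one with most reads was taken.

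Groups were compared pair by pair in edgeR 4.0.16 (R 4.3.3; TMM, quasi-likelihood test). A gene entered if it had over 10 reads in 6 or more of the 12 rats, and p-values were Benjamini-Hochberg adjusted over all those genes. As in the study, a gene was called at an unadjusted p under 0.05. The study lists a likelihood ratio statistic for its small RNAs, so its edgeR test can differ from the one used here. Sdc1 was not called here with the likelihood ratio test of edgeR either. Exact permutation tests (two-sided) used log2 CPM with a prior count of 2, and correlations were tested with 100000 permutations within groups (Python 3.11.15, numpy 2.4.6, scipy 1.17.1, pandas 2.3.3, matplotlib 3.10.9). DESeq2 1.42.0, the likelihood ratio test of edgeR, other scalings and filters, a replicate block, the no-feature share, the groups of the attached records and leaving out rats were alternatives. Data were also simulated and tested as bPYX+GFP against naïve rats. Of 200 genes changed by 1 on the log2 scale, among 11542, 85% had an adjusted p under 0.05. In the same data 7 unchanged genes did too. Whether the 85% holds in the real libraries, where genes varied together from rat to rat, was not tested. The 85% is therefore not read as the power of the real comparisons. The genes and lists were chosen with earlier results of these data known. The pathway genes named are the up to 3 per list with the smallest p under 0.05, and 3 like genes are named for each of the 7. Rats are separate animals.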

Additional observations from a re-analysis of the deposited data

Results flagged for a closer look

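In 5 of the 21 groups of 6 rats (7 genes in 3 groups), 1 rat stood apart from the other 5 by Dixon's criterion at 95%. Chance flags about 1 of 20 groups of normally distributed values. The 21 groups share the same rats and several of the genes were correlated, so the count is not set against that rate. Glypican 1 was at 1195 normalised counts in bPYX+NT3 rat 11, against 371 to 676 in the other 5 rats, and at 921 in bPYX+GFP rat 57, against 320.3 to 475. Syndecan-3 was at 2556 in the same rat 57, against 1533 to 1756. These 2 rats had the lowest shares of read pairs on no feature, 30.8 and 31.7%. Syndecan-2 was at 2880 in bPYX+NT3 rat 23, against 1593 to 2027, where the share was 34.2%. Syntenin-2 was at 33.9 in naïve rat 42, against 8.85 to 17.6, a rat that also held the highest naïve syndecan-1 count, 220.2.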

How the results depend on the processing

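The groups of the attached records are not those that gave the study's fold changes of Sdc1. With the groups of the attached records (values in parentheses: the same with the replicate block), 174 (91) genes were called in bPYX+GFP against naïve and 330 (199) in bPYX+NT3 against naïve rats, and 0 (0) of the 7 genes in bPYX+NT3 against bPYX+GFP rats. Log2 fold changes then turned sign in bPYX+GFP against naïve rats for Sdc2 (-0.0021 without the block), Gpc1 -0.26 (-0.14), Tiam1 0.044 (0.041), Lrrtm4 0.046 (0.036), Gpc3 0.11 (0.074), Fgf7 0.15 (0.15), Pld1 0.019 (0.024) and Itgb3 0.20 (0.23). In bPYX+NT3 against naïve rats they turned for Sdc3 -0.055 (-0.058), Sdc4 -0.075 (-0.069), Sdcbp 0.062 (0.063), Sdcbp2 -0.84 (-0.65), Gpc1 -0.45 (-0.47), Lrrtm4 0.29 (0.28), Lama5 -0.75 (-0.78), Gpc3 0.11 (0.088), Adam10 0.20 (0.20), Cxcl12 0.16 (0.17), Fgfr1 -0.18 (-0.18) and Lamc1 0.12 (0.11). In bPYX+NT3 against bPYX+GFP rats they turned for Sdc1 -0.025 (-0.0064), Sdcbp 0.034 (0.033), Sdcbp2 -0.34 (-0.31) and Gpc1 -0.18 (-0.29). The labels state no pairing of rats by replicate number. Same-numbered rats deviated together (r above 0.1) in 2, 5 and 3 of 6 pairs of the 3 comparisons, which does not settle whether they were paired. As a block the replicate numbers gave 1 of the 7 genes (Gpc1, 0.48) and 2962 genes in bPYX+NT3 against naïve rats, and 130 genes in bPYX+NT3 against bPYX+GFP rats. With the no-feature share as covariate 1 of the 7 genes and 848 genes were called in bPYX+GFP against naïve rats and 0 of the 7 in bPYX+NT3 against bPYX+GFP rats, and Sdc3 (-0.037), Sdcbp (0.028) and Sdcbp2 (-0.032) turned in bPYX+NT3 against naïve rats. Scaling by library size alone turned Sdc1 to 0.021 there, and without the filter 315 genes were called in bPYX+NT3 against bPYX+GFP rats. Leaving out rats 11 and 57 together, chosen after seeing the data, gave 3 of the 7 genes and 1462 genes in that comparison, and turned r of Sdc2 with Sdcbp2 (0.042), Sdc3 with Sdc4 (0.0023), Sdc4 with Sdcbp (-0.091) and Sdc4 with Gpc1 (0.013). Regressing out the share, also added then, turned r of Sdc1 with Sdc2 (0.038) and Sdc3 (-0.058), of Sdc2 with Sdcbp (-0.015), Sdcbp2 (0.38) and Gpc1 (0.070), and of Sdc4 with Sdcbp (-0.12) and Gpc1 (0.076). With 1 rat left out, 0 to 1, 0 to 1 and 0 to 3 of the 7 genes were called in the 3 comparisons, and 272 to 595, 365 to 1387 and 95 to 2291 genes, the highest without rats 57, 23 and 57 and both of the last lows without rat 11. Gpc1 (-0.16 to 0.32) and Sdc2 (-0.045 to 0.12) in bPYX+GFP and Sdc1 (-0.22 to 0.22) and Sdc4 (-0.058 to 0.071) in bPYX+NT3 against naïve rats then changed sign. The causes were not tested. At 3.6 to 46.2 normalised counts, depth limits Sdcbp2 most.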
